A study of Mus musculus with 18 samples.

Results

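Cytosolic ribosomal protein genes were examined, 77 of the 53379 genes in the deposited count table, 46 of the large ribosomal subunit and 31 of the small subunit. They were chosen as protein-coding genes with a symbol of the form Rpl, Rps or Rplp and a number, and selected on their measured mean level, at least 1 CPM (counts scaled to a common library total) over the 18 libraries. Genes in a window of chromosome 9 (mm10) around the targeted gene Cish were left out. The rule used no difference between groups, but the gene set was proposed with earlier results of these data known. The symbol form alone matched 82 genes. The member with the lowest mean was Rpl13a at 2.46 CPM, and the genes under the limit were Rpl24 at 0.239 CPM, Rpl39l at 0.0889 CPM and Rpl10l with no counts. Rpl14 and Rpl29 were left out for their position. All 77 members passed the low-count filter and were tested.

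The RNA came from bone marrow neutrophils of 10-week-old mice, isolated by fluorescence-activated cell sorting, in 6 groups of 3 libraries. The groups were wild-type (WT) and CIS-/- mice, the latter lacking the cytokine-signalling inhibitor CIS per the labels, each unstimulated straight after sorting, after 4 h or after 24 h in medium with GM-CSF at 100 ng/mL. GM-CSF is a cytokine that supports the survival and activation of neutrophils, and the comparisons ask how the cells respond to it with and without CIS. No group was cultured without GM-CSF, so culture and cytokine cannot be told apart in any change over time. The labels do not say whether replicates were separate mice, so p-values measure the spread between these libraries. Library totals ran from 12170524 to 22539858 counts. Cish had 97 to 121 counts in unstimulated WT libraries and 278 to 315 in unstimulated libraries labelled CIS-/-, more than in WT. After GM-CSF it had 14346 to 30357 counts in WT against 2641 to 4650. Cish RNA was thus counted in every library labelled CIS-/-, and whether the allele gives RNA without CIS protein is not known here. The group is therefore called by its label below. Replicate 1 labelled CIS-/- at 24 h stood apart from its replicates 2 and 3, with a chi-square per degree of freedom of 6.82 and 8.46 where the other 16 pairs lay between 1.28 and 2.90. Changes set against the unstimulated libraries labelled CIS-/- rest on libraries whose Cish counts were above those of WT.

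Each ribosome holds a single copy of nearly every ribosomal protein, apart from the acidic stalk proteins, so the genes are usually expressed as a coordinated group. In mammals their mRNAs typically begin with a cytosine and a run of pyrimidines at the very 5′ end, called a 5′ terminal oligopyrimidine (TOP), through which mTORC1 and the RNA-binding protein LARP1 control their translation and stability. Several members have close paralogs, and nearly all have processed pseudogenes, copies of the mRNA elsewhere in the genome. Neutrophils make most of their granule proteins early in development, in the marrow, before they mature.

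The annotated start sites are shown because the start defines a TOP mRNA and the members moved in different directions. RefSeq promoter entries (GRCm38.p6) were matched by symbol for 58 of the 77 members. A TOP form (a cytosine at the annotated start, followed by at least 4 pyrimidines) was found for 12 of these 58 genes, 20.7%, against 3.01% of all 27025 genes with an entry. Of these, 5 are printed as 30 bases, 20 before the start and 10 from it, 5′ to 3′ on the gene's strand, with the pyrimidine run from the start in capitals.
Rps27: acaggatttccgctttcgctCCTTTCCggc
Rps6: gggttaagcggaagtcgggcCTCTTTTTCg
Rps10: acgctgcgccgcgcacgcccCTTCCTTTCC
Rplp2: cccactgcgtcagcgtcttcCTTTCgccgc
Rpl28: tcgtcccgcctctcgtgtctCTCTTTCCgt
The windows lie in GRCm38.p6 as follows: Rps27 at chr3:90213639-90213668 (minus strand), Rps6 at chr4:86857358-86857387 (minus strand), Rps10 at chr17:27635235-27635264 (minus strand), Rplp2 at chr7:141447631-141447660 (plus strand), Rpl28 at chr7:4792945-4792974 (plus strand). The same windows are printed for 7 members whose levels are described below, none of which has the TOP form at its annotated start.
Rps9: gtccaaccgccttgtctctcTTTgtctcgg
Rps4x: aaagtctgaggctgggcggagcaacccagg
Rpl5: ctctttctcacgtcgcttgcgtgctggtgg
Rps28: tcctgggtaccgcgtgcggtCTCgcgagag
Rpl10: ctatggttgttacagtggaagataggccgc
Rpl12: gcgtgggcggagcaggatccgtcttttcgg
Rpl22l1: cgtgcgtgcggcgcaagcccgttctcttcc
Their windows are Rps9 at chr7:3704021-3704050 (plus strand), Rps4x at chrX:102189382-102189411 (minus strand), Rpl5 at chr5:107900508-107900537 (plus strand), Rps28 at chr17:33824553-33824582 (minus strand), Rpl10 at chrX:74270796-74270825 (plus strand), Rpl12 at chr2:32961692-32961721 (plus strand), Rpl22l1 at chr3:28805488-28805517 (plus strand). An annotated start need not be the start used in these cells. Searched on both strands of the 300 bases around each start, CCGGAAG, an ETS-type motif, was in 41.4% of the 58 genes and 9.93% of all genes. AGATGGC, a YY1-type motif, was in 13.8% against 7.31%, and the TATA-box form TATAAA was in 12.1% against 15.7%. The matches describe these letters in these windows only. The 12 members with the TOP form had a median log2 fold change of -0.53 between the genotypes at 24 h, against -0.49 for the 46 with another start and -0.72 for the 19 without an entry.

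The members together held 0.275% to 0.623% of the counts per library. Per kilobase of the principal transcript, their mean levels ran from 2.33 CPM for Rpl13a to 523 CPM for Rps9, with medians of 52.7 CPM for the large subunit and 59.7 CPM for the small one. Rps9, a small-subunit protein that binds early in assembly, was followed by Rps27 at 424 CPM per kilobase and Rps14 at 226 CPM per kilobase, and the highest large-subunit gene was Rpl9 at 216 CPM per kilobase. Reads that match a gene and its pseudogenes equally well may not have been counted, and the handling of such reads is unknown here. Its part in the order of the levels was not tested, so the changes of each gene between groups are given below rather than the order of genes. In bulk RNA, fewer cells of a type and less RNA per cell cannot be told apart.

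The members' summed level was slightly lower at 4 h than before in both genotypes, and at 24 h it was higher in WT and lower in the libraries labelled CIS-/-. The levels per kilobase above and all levels from here on are CPM scaled with TMM factors. These factors were 1.28 to 1.29 in WT and 0.884 to 0.894 with the CIS-/- label at 24 h and 0.907 to 1.04 in the other libraries. The summed level of the 46 large-subunit genes was 2093, 2157 and 2115 CPM in WT libraries before stimulation, then 1970, 1980 and 2004 CPM after 4 h and 2487, 2442 and 2466 CPM after 24 h. With the CIS-/- label it was 2292, 2266 and 2184 CPM before stimulation, then 2037, 2054 and 1894 CPM after 4 h and 1945, 1729 and 1745 CPM after 24 h. At 24 h every WT library lay above, and every library labelled CIS-/- below, all unstimulated libraries, and replicate 1 labelled CIS-/- was the nearest of its group to them.

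With the CIS-/- label at 24 h the summed level of the small subunit was further below its starting level than that of the large one. The 31 small-subunit genes summed to 2070, 2145 and 2103 CPM in unstimulated WT libraries and to 2364, 2305 and 2338 at 24 h. In libraries labelled CIS-/- they summed to 2252, 2257 and 2196 CPM unstimulated and to 1582, 1353 and 1389 at 24 h, a difference of -35.5% in the mean, against -19.6% for the large subunit. The ratio of large to small summed levels was 0.989 to 1.02 in the 12 libraries before 24 h, 1.05 to 1.06 in WT at 24 h, and 1.23 to 1.28 in the libraries labelled CIS-/- at 24 h. Without Rps9, the member with the highest level, the groups were still apart, with a ratio of 1.40 to 1.46 against 1.26 to 1.30 in the 15 other libraries.

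**Figure D1:**
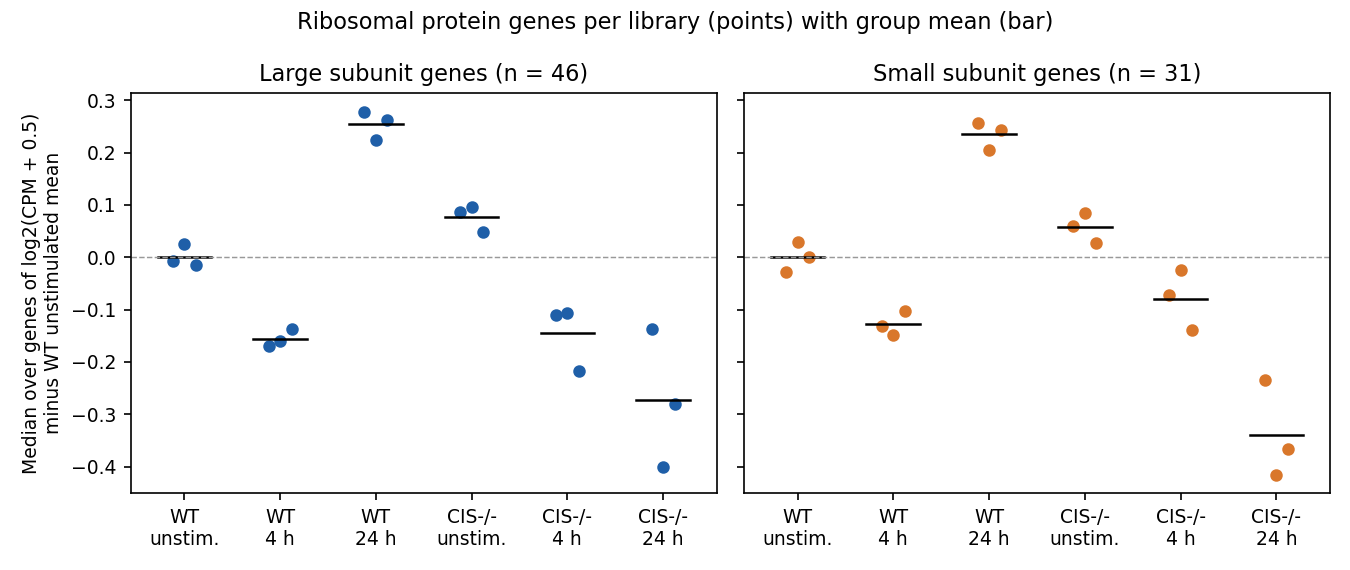
Median over the large-subunit (left) and small-subunit (right) genes of log2(CPM + 0.5), relative to the WT unstimulated mean of each gene, for each library (points) with the group mean (bar). The WT libraries at 24 h lie between 0.20 and 0.28, and those labelled CIS-/- at 24 h between -0.42 and -0.14.

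At 4 h of GM-CSF most members fell a little in both genotypes while a few rose. Among members of at least 10 CPM, Rps20 and Rps28 of the small subunit and Rpl10 of the large one rose most, and below that level Rpl3l rose further, by a log2 fold change of 1.52 ± 0.16 in WT. In WT, 13 members were higher and 41 lower than unstimulated by the edgeR quasi-likelihood test (adjusted p under 0.05), where 38.1% and 38.2% of all 11569 genes tested were called higher and lower. With library sizes alone in place of TMM factors the split was 5 higher and 61 lower. The median log2 fold change was -0.18 for the large and -0.15 for the small subunit, against -0.02 over all genes. In libraries labelled CIS-/-, 8 members were higher and 48 lower (all genes 37.9% and 39.1%), with medians of -0.22 and -0.15. In both genotypes 37 members fell and 7 rose (Rpl10, Rpl12, Rpl3l, Rpl7l1, Rplp1, Rps20 and Rps28), where 34% and 33.7% of all genes did. The genotype-by-time interaction at 4 h, which tests whether the change differed between genotypes, was called for 4 members, Rplp0, Rpl7a, Rpl6 and Rpl10a, each lower (background 10.4%). It was called higher for 0 (background 5.32%) by edgeR, DESeq2 and limma-voom, and 0 were higher at an unadjusted p under 0.05.

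Rps20, a small-subunit protein of the 40S head, stood at 11.3, 12.9 and 12.5 CPM in unstimulated WT libraries and at 25.4, 21.5 and 24.5 CPM at 4 h, and it rose by a log2 fold change of 0.95 ± 0.09 (SE, edgeR adjusted p = 1.01e-14). Rps28, which lines the mRNA exit side of the small subunit, rose by 0.86 ± 0.09 in both genotypes (edgeR adjusted p = 1.15e-12 in WT and 3.29e-12 with the CIS-/- label). Rpl10, which joins the large subunit in the last steps of its maturation, rose by 0.68 ± 0.05 in WT and by 0.70 ± 0.05 in the libraries labelled CIS-/-. Among the genes that fell were Rps27a, whose product is a fusion of ubiquitin and a small-subunit protein, by 0.49 ± 0.04 on the log2 scale in WT, and Rpl37, a large-subunit zinc-binding protein, by 0.41 ± 0.06.

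At 24 h most members had risen in WT. There, 48 members were higher and 13 lower than unstimulated, where 40.7% and 37.7% of all genes were called, and with library sizes alone the split was 64 and 6. The medians were 0.29 for the large and 0.24 for the small subunit, against 0.05 over all genes. From 4 h to 24 h in WT, 53 rose and 6 fell (background 35.7% and 39.6%; 74 and 0 with library sizes alone). Among members of at least 10 CPM, the largest rises of the large subunit over 24 h were those of Rpl12, a protein of the stalk base (1.02 ± 0.08), the stalk protein Rplp2 (1.01 ± 0.05) and Rpl10 (0.90 ± 0.05). In the small subunit they were Rps28 (1.02 ± 0.08), Rps20 (0.85 ± 0.08) and Rps26 (0.78 ± 0.07). Rps27a and the X-linked Rps4x had the lowest changes of the small subunit, at -0.86 ± 0.04 and -0.72 ± 0.07.

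In the libraries labelled CIS-/- most members fell over the same 24 h. There, 49 members were lower and 19 higher than unstimulated, where 42% and 42.1% of all genes were called, with medians of -0.28 for the large and -0.39 for the small subunit and -0.01 over all genes. Without replicate 1, which stood apart, 51 were lower and 18 higher. From 4 h to 24 h with the CIS-/- label, 40 fell and 22 rose (background 37.9% and 37.8%). The fall was widest for Rps4x, Rps27a and Rps9, at -2.73 ± 0.10, -2.17 ± 0.05 and -1.47 ± 0.04, and in the large subunit for Rpl37, Rpl7 and Rpl9, at -1.34 ± 0.06, -1.12 ± 0.05 and -1.06 ± 0.04. Rps28, Rpl10 and Rpl12 rose, by 2.04 ± 0.08, 1.44 ± 0.05 and 1.43 ± 0.08. Set side by side over both genotypes, 18 members rose in both and 12 fell in both, where 29.7% and 29.6% of all genes did. A rise in WT and a fall with the CIS-/- label was called for 24 of the 77 members and for 5.3% of all genes, and the reverse for 0 members and 4.71% of all genes. A further 13, Rps9, Rpl7, Rpl11 and Rps23 among them, fell with the CIS-/- label and were not called in WT (7.17% of all genes). Across the 77 genes the 2 changes, which share no library, had a Pearson r of 0.74 and a Spearman rho of 0.73, given as a description since genes are not independent.

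**Figure D2:**
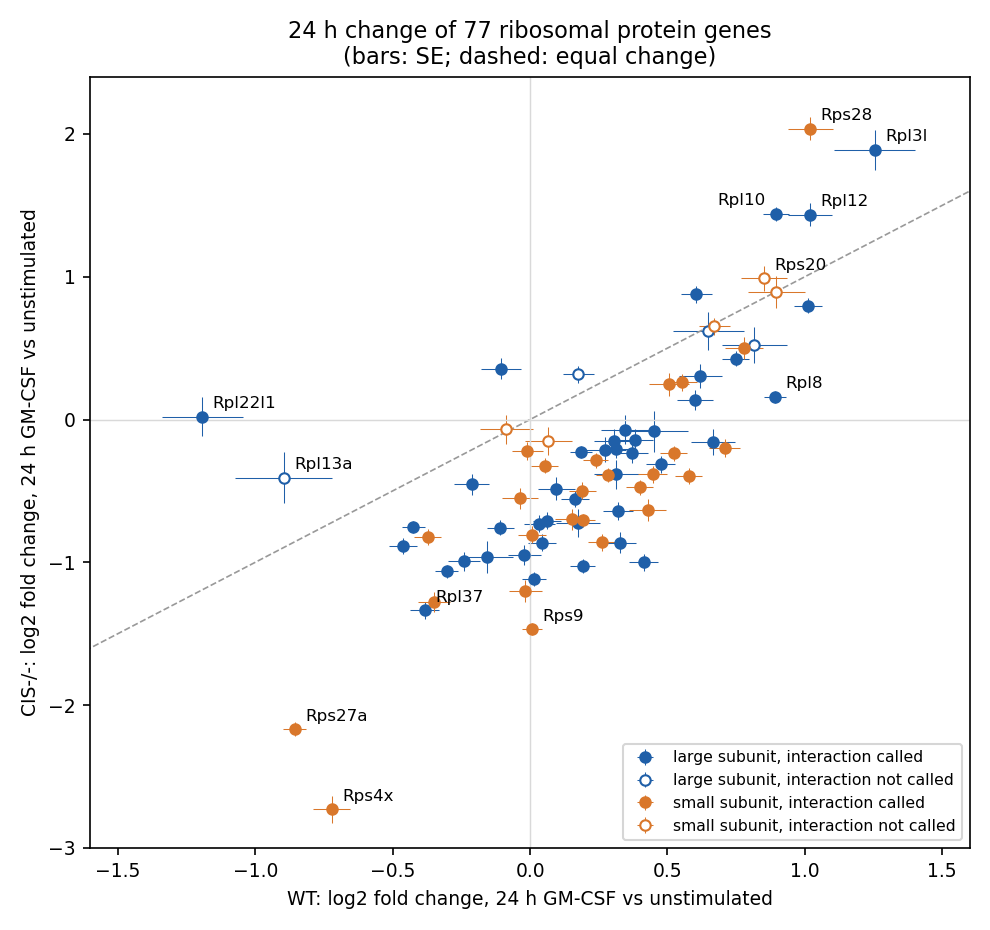
Log2 fold change of each of the 77 genes from unstimulated to 24 h of GM-CSF in WT (horizontal) and in libraries labelled CIS-/- (vertical), with SE bars; the dashed line marks equal change and filled points a called interaction (blue, large subunit; orange, small subunit). Most points lie below the line, Rps4x and Rps27a furthest down, while Rps28 and Rpl10 lie above it; with library sizes alone Rpl12, Rpl3, Rps20, Rps19, Rpl13a and Rpl7l1 are among the genes that change side.

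At 24 h the genotypes differed for nearly all members, and in most cases the libraries labelled CIS-/- were lower. Against WT at 24 h, 62 members were lower and 11 higher, where 38.1% and 38.2% of all genes were called, with medians of -0.47 for the large and -0.62 for the small subunit and -0.02 over all genes. With library sizes alone the split was 70 lower and 3 higher, since that scaling moves the median of all genes to -0.55, and the values of single genes below are then lower by a similar amount. Without replicate 1 labelled CIS-/- it was 62 and 11. By subunit, 36 of 46 large-subunit and 26 of 31 small-subunit members were lower. The 3 libraries labelled CIS-/- all lay below the 3 WT libraries for 35 large-subunit and 25 small-subunit members (38.4% of all genes), and all above them for 8 and 2 (37.6% of all genes). The interaction at 24 h was called for 61 members with a lower and 7 with a higher change in the libraries labelled CIS-/- (background 33.1% and 31.6%). With library sizes alone these counts were 70 and 2, and with the 4 h libraries as baseline, an alternative chosen after seeing the data, 57 and 11. For 28 large-subunit and 21 small-subunit members the mean with the CIS-/- label at 24 h was the lowest of the 6 group means, and for 23 and 18 the WT mean at 24 h was the highest. The shares of all genes with these extremes were not computed, so the counts are a description of the members only.

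**Figure D3:**
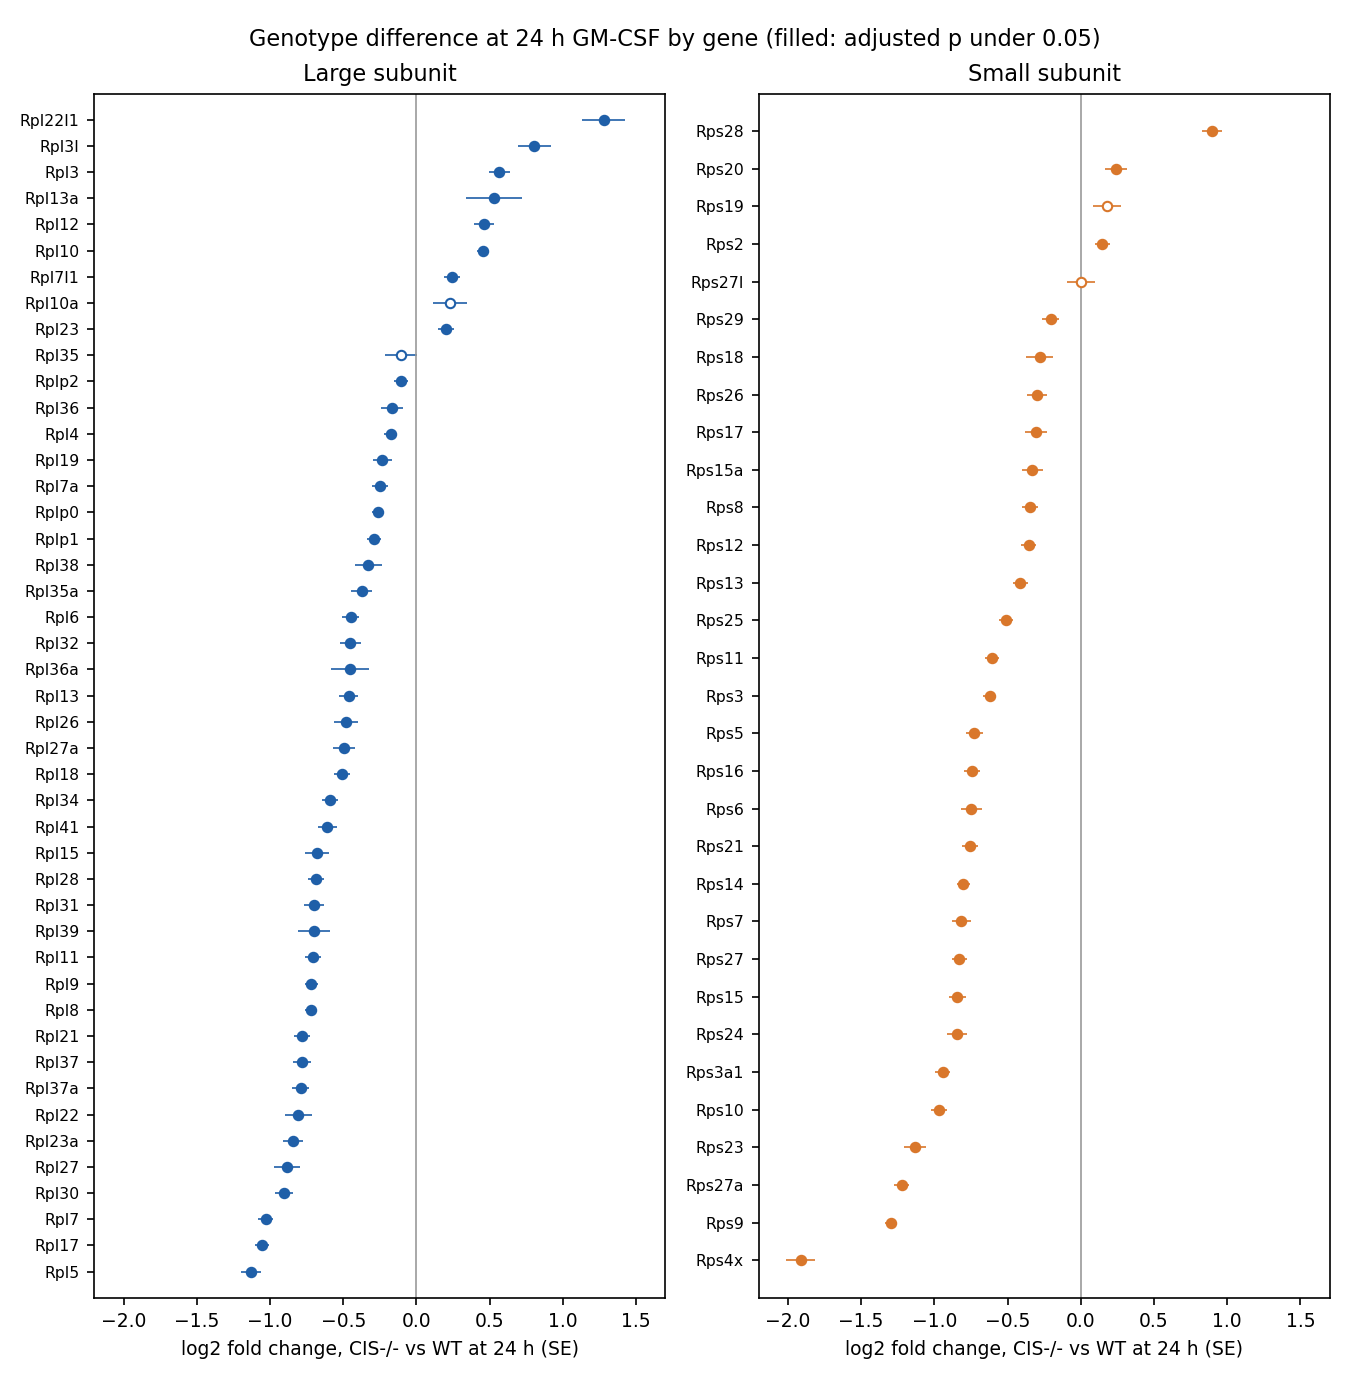
Log2 fold change between libraries labelled CIS-/- and WT at 24 h for large-subunit (left) and small-subunit (right) genes, with SE bars, filled where the adjusted p was under 0.05. Values run from -1.91 for Rps4x to 1.28 for Rpl22l1; with library sizes alone Rpl12, Rpl10, Rps20, Rps19, Rpl13a and Rpl7l1 are among the genes that change from above to below 0.

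Rps4x and Rps9 were the furthest down of the well-expressed small-subunit genes. Rps4x, the X-linked gene of a small-subunit protein, stood at 46.5, 46.4 and 49.3 CPM in unstimulated WT libraries and at 29.2, 30.0 and 26.8 at 24 h. In libraries labelled CIS-/- it stood at 50.4, 50.3 and 51.4 CPM unstimulated and at 9.15, 6.53 and 7.26 at 24 h. The groups did not overlap, and the difference at 24 h was -1.91 ± 0.10 (edgeR adjusted p = 2.1e-21), with an interaction of -2.01 ± 0.12. Its highest group mean was 6.63 times its lowest, the widest range of the 77 members, of which 21 ranged at least 2-fold. The share of all genes with such a range was not computed.

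Rps9, the member with the highest level, stood in WT at 416, 434 and 424 CPM before stimulation, at 407, 418 and 431 CPM after 4 h and at 429, 422 and 428 CPM after 24 h, a 24 h change of 0.01 (95% interval -0.07 to 0.09). With the CIS-/- label it was at 483, 486 and 470 CPM unstimulated, 443, 433 and 424 CPM at 4 h, and 191, 170 and 161 CPM at 24 h. The 24 h libraries thus lay under all others, with a difference from WT of -1.30 ± 0.04 (edgeR adjusted p = 5.66e-38). Rps27a fell in both genotypes, from 160, 162 and 163 CPM to 92.6, 88.0 and 86.9 in WT and from 171, 176 and 168 to 43.2, 36.5 and 35.5 with the CIS-/- label, and the difference at 24 h was -1.22 ± 0.05. Rps23, a protein of the decoding centre, averaged 35.1 ± 2.1 CPM (SD, n = 3) in WT and 15.8 ± 1.9 CPM with the CIS-/- label at 24 h.

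In the large subunit Rpl5, Rpl17 and Rpl7 were among the lowest against WT at 24 h. Rpl5 and Rpl11 carry 5S rRNA into the ribosome and, outside it, bind the p53 regulator Mdm2. Rpl5 was at 39.6, 38.7 and 36.6 CPM in WT and at 19.6, 17.7 and 15.9 CPM with the CIS-/- label at 24 h, and Rpl11 at 48.7, 48.2 and 50.6 against 31.9, 29.0 and 29.4. With the CIS-/- label the 2 partners differed from WT by -1.13 ± 0.07 and -0.71 ± 0.06. Rpl17, a protein near the exit of the peptide tunnel, differed by -1.05 ± 0.05, and Rpl7 by -1.03 ± 0.05.

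The members that went the other way were few, and among those of at least 10 CPM Rps28 had the largest difference. Rps28 stood at 10.9, 12.2 and 11.1 CPM in unstimulated WT libraries and at 23.1, 21.9 and 24.7 at 24 h. With the CIS-/- label it stood at 10.6, 10.5 and 10.4 CPM unstimulated and at 49.1, 39.6 and 40.8 at 24 h, above every WT library. The difference at 24 h was 0.90 ± 0.07 (edgeR adjusted p = 1.24e-18) with TMM factors and 0.37 with library sizes alone (edgeR adjusted p = 2.02e-06). Rpl10 was at 91.6, 85.9 and 89.2 CPM in WT and at 124.3, 119.5 and 121.1 CPM with the CIS-/- label at 24 h, a difference of 0.45 ± 0.04 that turned to -0.08 with library sizes alone. Rpl12 differed by 0.46 ± 0.07, which turned to -0.07 with library sizes alone. The direction of Rpl10 and Rpl12 thus depends on the scaling, and that of Rps28 was the same under both.

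**Figure D4:**
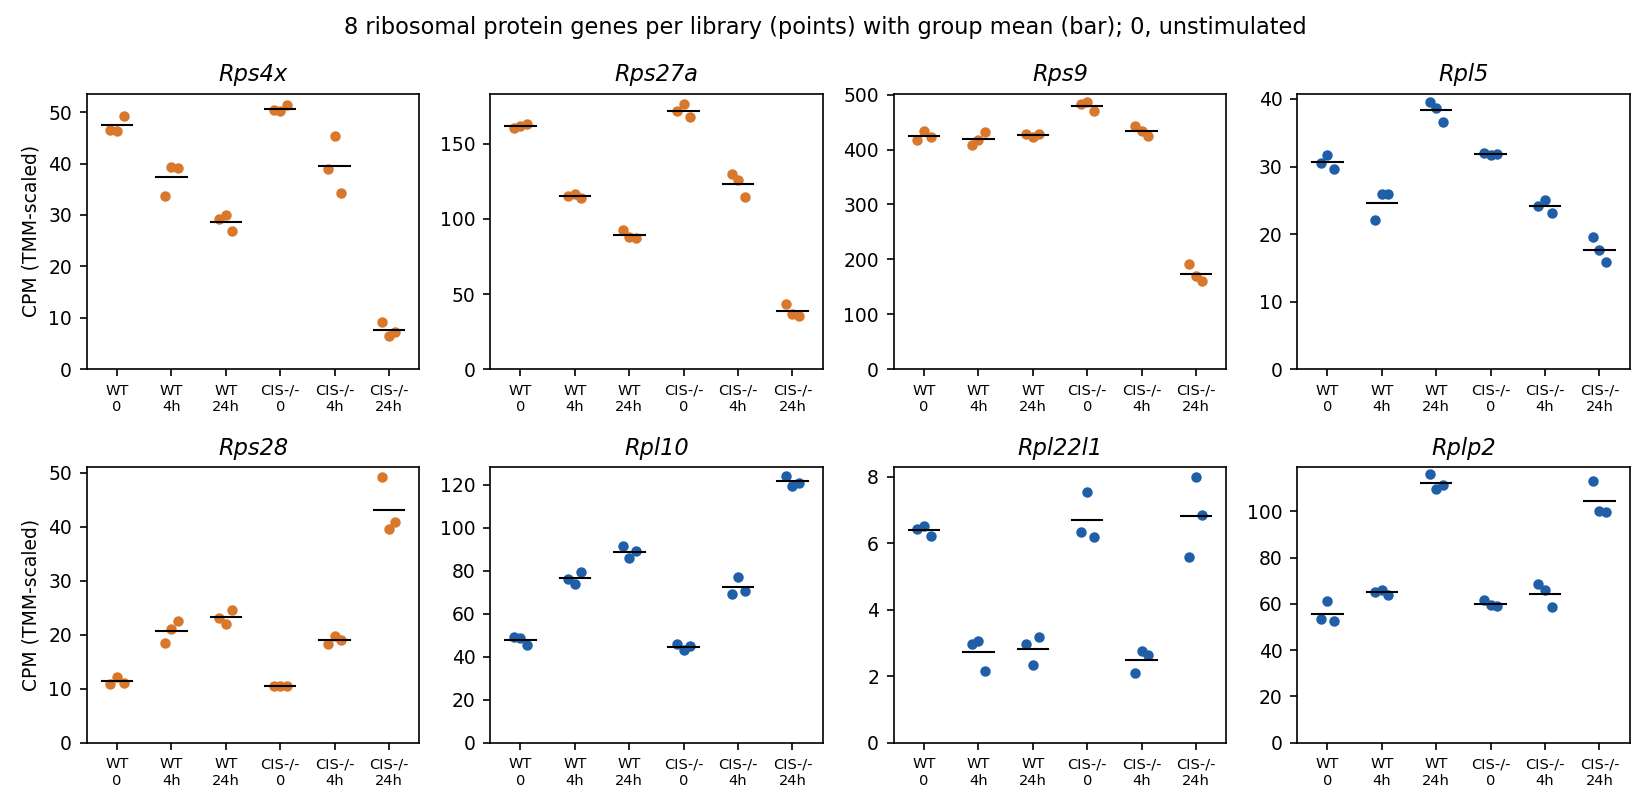
CPM scaled with TMM factors in each library (points) and group mean (bar) for 8 genes across the 6 groups; 0 marks unstimulated. Rps4x, Rps27a, Rps9 and Rpl5 are lowest in the libraries labelled CIS-/- at 24 h, and Rps28 and Rpl10 are highest there; with library sizes alone Rpl10 is not higher than in WT.

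Among the paralogs, Rpl22l1 and Rpl22 differed between genotypes in opposite directions, and Rpl3l and Rpl3 in the same one. Rpl22l1, the paralog of the large-subunit protein gene Rpl22, was at 6.42, 6.52 and 6.23 CPM in unstimulated WT libraries and at 2.98, 2.33 and 3.19 at 24 h. With the CIS-/- label it fell at 4 h to 2.09, 2.77 and 2.64 CPM and was back at 5.581, 8.001 and 6.856 at 24 h, a difference from WT of 1.28 ± 0.15 (edgeR adjusted p = 2.03e-11). With library sizes alone that difference was 0.75 (edgeR adjusted p = 1.13e-05). Rpl22 itself was at 16.7, 17.2 and 18.2 CPM in WT and at 10.6, 8.19 and 10.5 with the CIS-/- label, a difference of -0.81 ± 0.09 (edgeR adjusted p = 9.42e-12). Rpl3l, the paralog of Rpl3 best known from heart and skeletal muscle, rose from 2.81, 2.82 and 2.31 CPM to 7.62, 7.61 and 7.47 within 4 h in WT, and at 24 h it was at 6.10, 6.75 and 5.88 in WT and 12.5, 11.4 and 9.56 with the CIS-/- label. With library sizes alone Rpl3l was still higher with that label at 24 h, by 0.27 (edgeR adjusted p = 0.0251). Rpl3, which shapes the peptidyl transferase centre, was also higher at 24 h with the CIS-/- label, by 0.56 ± 0.07, or 0.03 with library sizes alone. Rpl7l1 differed by 0.24 ± 0.05 and its parent Rpl7 by -1.03 ± 0.05, and Rpl7l1 turned to -0.29 with library sizes alone. Rps27l, the p53-inducible paralog of Rps27, rose in both genotypes by 0.90 and 0.89, with a genotype difference at 24 h of 0.00 (95% interval -0.21 to 0.21) that became -0.53 with library sizes alone (edgeR adjusted p = 8.46e-07), while Rps27 differed by -0.83 ± 0.05. Apart from Rpl7l1 these paralogs had group means of at most 11.8 CPM.

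The 3 genes of the acidic stalk, which recruits the elongation factors, rose in WT. Over 24 h in WT, Rplp0 rose by 0.19 ± 0.04, Rplp1 by 0.75 ± 0.05 and Rplp2 by 1.01 ± 0.05. In libraries labelled CIS-/- the changes were -0.23 ± 0.04, 0.43 ± 0.05 and 0.80 ± 0.05, and the genotype differences at 24 h were -0.26, -0.29 and -0.11 (edgeR adjusted p = 8.27e-08, 2.39e-07 and 0.0413). With library sizes alone they were -0.79, -0.82 and -0.64. The Rplp2 call was lost without any 1 of the 3 WT replicates and without replicate 2 or 3 labelled CIS-/- at 24 h, and its difference ran from -0.16 to -0.07 when a library was left out. Rps6, the substrate of the S6 kinases downstream of mTORC1, rose in WT from 29.0, 28.6 and 26.5 CPM to 34.9, 39.7 and 38.2 and fell with the CIS-/- label from 36.9, 32.9 and 34.5 to 23.6, 20.2 and 23.0. Rps26 rose in both genotypes, by 0.78 ± 0.07 and 0.50 ± 0.08. Rpl38, known for its part in the translation of Hox mRNAs, differed by -0.33 ± 0.09 at 24 h. Rps19, a gene mutated in Diamond-Blackfan anaemia, was at 11.03, 10.82 and 11.57 CPM in WT and at 13.4, 12.2 and 12.2 with the CIS-/- label, a difference of 0.18 (95% interval -0.03 to 0.39) that did not pass the test and that turned to -0.35 with library sizes alone.

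Before stimulation most members were not called between the genotypes, and their median was slightly higher with the CIS-/- label. Over all 77 members that median was 0.06, against -0.01 over all genes. With library sizes alone it was 0.02, against -0.05 over all genes. Of the 77, 14 were higher and 0 lower than WT by edgeR (background 12.9% and 9.41%; 8 and 1 with library sizes alone), with medians of 0.07 for the large and 0.05 for the small subunit. DESeq2, limma-voom and an unadjusted p under 0.05 also gave 0 lower. Rpl6, Rps6, Rpl19 and Rps9 were among them, at 0.32 ± 0.06, 0.31 ± 0.07, 0.23 ± 0.07 and 0.18 ± 0.04. Without WT replicate 1 the count was 4, and it was 8 without WT replicate 3 and without replicate 1 or 2 labelled CIS-/-. At 4 h, 2 members were higher, Rps6 by 0.25 ± 0.08 and Rps13 by 0.15 ± 0.05, and 0 were lower by edgeR, DESeq2 and limma-voom (background 8% and 9.3%), with 3 lower at an unadjusted edgeR p under 0.05. That count was 0 without WT replicate 2 or 3 or replicate 2 labelled CIS-/-, 1 without replicate 1 of either genotype and 4 without replicate 3 labelled CIS-/-.

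Other ribosomal and translation genes are set beside the members, where 40.7% and 37.7% of all genes tested rose and fell over 24 h in WT, 42.1% and 42% with the CIS-/- label, and 38.2% and 38.1% were higher and lower between genotypes. The 7 cytosolic ribosomal protein genes that the symbol form or position left out moved as follows: 5 rose and 1 fell over 24 h in WT, and 1 rose and 5 fell with the CIS-/- label. Among them Fau, the gene of a ubiquitin-like fusion with a small-subunit protein, differed between genotypes at 24 h by -0.71 ± 0.04, and Rack1, a scaffold on the small subunit, by -0.60 ± 0.05. Of 18 translation factor and other TOP mRNAs, 14 rose and 1 fell in WT, and 12 rose and 5 fell with the CIS-/- label, with medians of 0.33 and 0.40. Eef1a1, the elongation factor that brings aminoacyl-tRNA to the ribosome, and Npm1, a nucleolar chaperone of ribosome assembly, were higher with the CIS-/- label at 24 h by 0.43 ± 0.03 and 1.95 ± 0.07, while Eif3f, a subunit of an initiation factor, differed by -1.46 ± 0.05. Library sizes alone move the median of all genes in this comparison to -0.55, so a difference of the size of that of Eef1a1 may not keep its direction. Of 71 mitochondrial ribosomal protein genes tested, 31 rose and 19 fell in WT, and 24 rose and 28 fell with the CIS-/- label. Of 44 respiratory-chain genes, 11 were higher and 23 lower than WT at 24 h, and of 31 proteasome genes 21 were higher and 2 lower. Protein-coding genes other than members with a combined exon length under 1.5 kb, 604 tested, had a median of -0.13 between the genotypes at 24 h. They are not matched to the members in length, since many members are longer on that measure, such as Rps9 at 2522 and Rpl18 at 4043 bases.

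**Figure D5:**
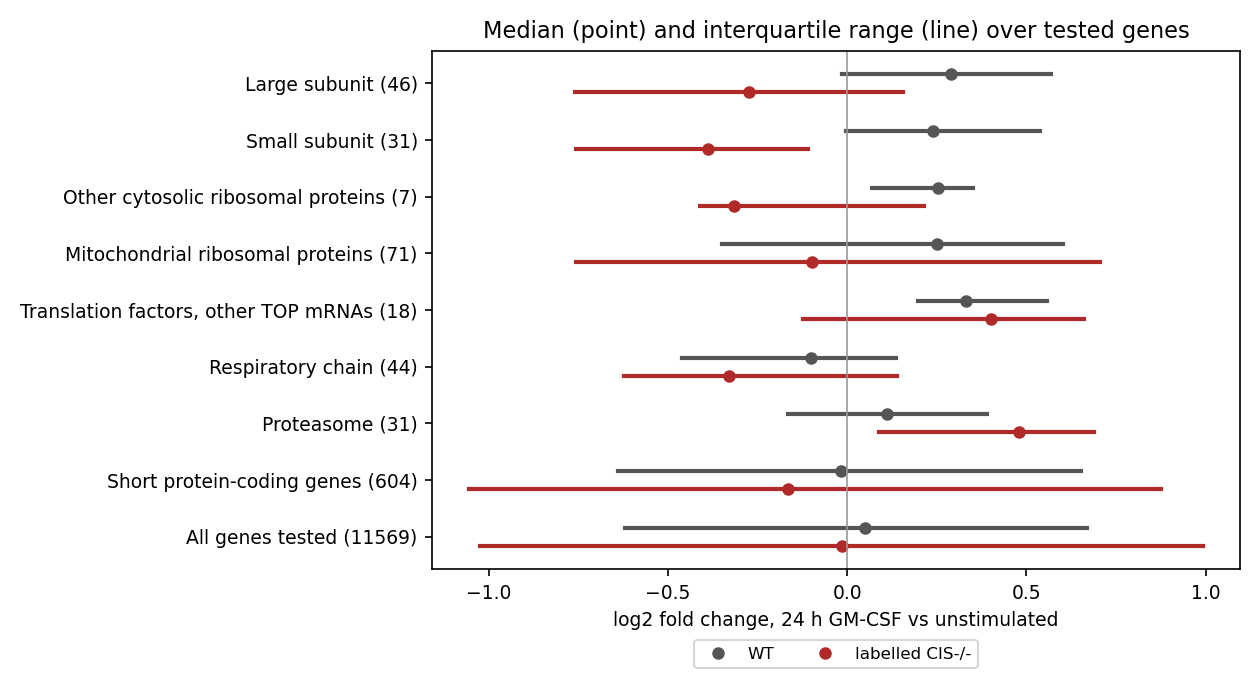
Median (point) and interquartile range (line) of the log2 fold change over 24 h of GM-CSF in WT (grey) and in libraries labelled CIS-/- (red) for the members by subunit and for 7 other lists, with the number of genes tested. The medians of the members are 0.29 and 0.24 in WT and -0.28 and -0.39 with the CIS-/- label, with those of the translation factors at 0.33 and 0.40.

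In the pathway that controls TOP mRNAs, 12 of 19 genes rose and 4 fell over 24 h in WT, and 9 rose and 8 fell with the CIS-/- label. Between the genotypes at 24 h, 8 were higher and 8 lower. Larp1, which binds the TOP, was higher by 0.54 ± 0.05 and Eif4ebp2, an inhibitor of cap-dependent initiation, differed by -1.53 ± 0.03. A difference of the size of that of Larp1 may not hold with library sizes alone, which move the median of all genes to -0.55. Rps6kb1, the gene of S6 kinase 1, was higher by 0.69 ± 0.06, and Mtor differed by -0.50 ± 0.06. Myc, a transcription factor known to drive ribosome assembly genes, was higher by 2.77 ± 0.27 at low levels, 3.81 against 0.571 CPM.

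Markers of cell types differed between the groups too. The summed level of 10 neutrophil markers was 114000 to 115100 CPM unstimulated and 26350 to 27750 at 24 h in WT, and 109200 to 113000 and 26920 to 31480 with the CIS-/- label. Of 7 erythroid markers, 5 were tested and all 5 were higher with the CIS-/- label at 24 h, with sums of 30.1 to 41.8 CPM against 7.73 to 9.36 in WT, and of 119 to 123 against 43.8 to 45.8 unstimulated. Klf1 was at 0 in WT at 24 h. Of 8 monocyte and macrophage markers, 3 of 5 tested were higher at 24 h, with sums of 1011 to 1050 CPM against 540 to 561, mostly from Adgre1 at 777 against 344 CPM, while the defining markers Cx3cr1 and Ccr2 were both under 1 CPM in every group. Early granulocyte precursor markers summed to 342.9 to 384.6 CPM against 198.6 to 202.4 at 24 h, with 1 of 5 tested called higher and 3 lower, and eosinophil and basophil markers to 38.2 to 43.1 against 56.6 to 64.5, with 2 of 5 lower. B-cell, T-cell and NK-cell, megakaryocyte and dendritic-cell markers each summed to at most 8.38 CPM in any library. The part of these markers in the members' differences was not tested.

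Neighbouring genes and pseudogenes touch some of the members. In GENCODE M21 the exons of 36 members overlap those of another gene, 25 on the same strand, mostly small nucleolar RNAs within the members' exons, and 19 on the opposite strand. The opposite-strand neighbour with the most counts was Tbc1d8 beside Rpl31, with 46804 counts over all libraries against 9425 for Rpl31. Rpl18, Rps18, Rps25 and Rpl12 also have one. So do, among others, Rpl5 (Fam69a, 1200 counts against 8493), Rps28 (Kank3, 249 against 6188) and Rps27a (Clhc1, 7 against 33855). The library kit kept the strand, per the labels, but whether featureCounts used it is unknown here, so reads of such pairs may not have been told apart. Rows named as pseudogenes of genes with this symbol form had counts in 151 of 284 cases, and adding those of the members to their parents left 62 members lower and 11 higher at 24 h.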

How the data were processed

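RNA was measured in 18 libraries of 6 groups. The deposited values are read counts per gene, made by the authors with Trimmomatic, STAR and featureCounts on mm10, per the submitters' processing notes. Not given in the sources used here: tool versions, annotation release, strandedness of the counting, and what was done with reads matching several places. The libraries were strand-specific, per the labels. A treatment note in the labels gives 42 h where titles and the extraction note give 24 h, and 24 h was used. Gene names came from GENCODE M21 for 53274 of 53379 identifiers, and 105 stayed unnamed. No value column was left unused.

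Counts were filtered with filterByExpr (11569 genes, 99.928% of counts), scaled with TMM and fitted in 1 edgeR quasi-likelihood model of the 6 groups (12 residual degrees of freedom, biological coefficient of variation 3.3%), with Benjamini-Hochberg adjustment over all genes and a threshold of 0.05. Log2 fold changes are given with their SE. Genes were named by rule: per comparison and subunit the 3 highest and 3 lowest log2 fold changes among members of at least 10 CPM, the paralogs beside their parents, and Rplp0, Rplp1, Rplp2, Rps6, Rpl5, Rpl11, Rps19, Rps26, Rpl13a and Rpl38. A few genes are not reported here by name. Other members and genes of other lists were chosen after their values were seen. The members and lists were chosen with earlier results of these data known. Level per kilobase used the shortest principal transcript. Total counts of 12170524 to 22539858 per library limit the precision of members of a few CPM. Alternatives were RLE size factors, library sizes alone, TMM without ribosomal protein genes, DESeq2, limma-voom, no low-count filter, a filter of 50 counts in 3 libraries, the compared groups only, a replicate block, pseudogene counts added to parents and leaving out each library. The model was also run on simulated data in which only a small set of genes changed, in a single group. Most genes were called at 24 h in the real data, so that simulation cannot speak to the choice of scaling. R 4.3.3, edgeR 4.0.16, limma 3.58.1, DESeq2 1.42.0, Python 3.11.15, pandas 2.3.3 and matplotlib 3.10.9 were used.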

Additional observations from a re-analysis of the deposited data

Results flagged for a closer look

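The change over 24 h of GM-CSF differed between the genotypes, by the genotype-by-time interaction of the edgeR model, with a lower log2 fold change with the CIS-/- label than in WT for 61 members and a higher one for 7 (70 and 2 with library sizes alone). Of all genes tested, 33.1% and 31.6% were called lower and higher. Among the 61 were Rps4x at -2.01, Rps9 at -1.47, Rps27a at -1.31, Rpl17 at -1.22 and Rpl5 at -1.19 on the log2 scale. Those among the 7 were Rps28 at 1.02, Rpl10 at 0.55, Rpl3 at 0.46 and Rpl12 at 0.42, of which Rpl3 and Rpl12 turned to -0.03 and -0.07 with library sizes alone. The interaction at 4 h was called for 4 members, Rpl10a at -0.68, Rpl6 at -0.29, Rpl7a at -0.29 and Rplp0 at -0.22. Over all genes tested 10.4% were called lower at 4 h, a larger share than among the members. All of these interactions rest on the unstimulated libraries labelled CIS-/-, whose Cish level was above that of WT.

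Rows named as pseudogenes of genes with the members' symbol form, used above only when added to their parents, held 0.468% to 0.587% of the members' counts in the 3 libraries labelled CIS-/- at 24 h, against 0.218% to 0.311% in the 15 other libraries. Their own counts there were 267, 157 and 296, against 236, 385 and 234 in the WT libraries at 24 h, while the members held 0.275% to 0.312% of all counts against 0.608% to 0.623%. The row with the most counts, Rpl21-ps1, had 279 summed over the libraries labelled CIS-/- at 24 h, against 122 in WT. Rps2-ps3 was also higher, at 44 against 1. Rpl9-ps6 and Rps16-ps2 were lower, at 37 against 95 and 56 against 113. Rows thus differed in both directions, and the share does not describe them as a class. The difference in the share was not tested.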

How the results depend on the processing

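Of the alternatives, library sizes alone moved the results most, shifting the median log2 fold change of all genes to -0.19 (WT 4 h), 0.36 (WT 24 h), 0.45 (WT 24 h against 4 h), -0.20 (CIS-/- label at 24 h), -0.55 (genotype at 24 h) and -0.51 (interaction at 24 h). Under it 5 members were higher in WT at 4 h, 6 lower in WT at 24 h, 0 lower from 4 h to 24 h in WT, 8 higher and 1 lower between genotypes unstimulated, 1 higher at 4 h, 3 higher at 24 h and 2 higher in the interaction. The medians between genotypes at 24 h became -1.01 for the large and -1.16 for the small subunit. All 22 reversals came from it: Rplp0 -0.15 (WT 4 h), Rps19 0.22 and Rpl3 0.20 (WT 24 h); Rpl9 0.40, Rpl4 0.23, Rpl7a 0.23, Rps24 0.34, Rps27a 0.12, Rps4x 0.11, Rpl3l 0.22 and Rpl39 0.45 (WT 24 h against 4 h); Rpl12 -0.073, Rpl10 -0.08, Rps20 -0.29, Rps19 -0.35, Rpl13a -0.004 and Rpl7l1 -0.29 (genotype at 24 h); Rpl3 -0.032, Rpl12 -0.075, Rps20 -0.36, Rps19 -0.48 and Rpl7l1 -0.22 (interaction at 24 h). The genotype count at 4 h, 2 higher, was 1 with limma-voom and without a low-count filter, 5 with the compared groups only and 0 to 4 when a library was left out. Unstimulated, leaving out a library gave 4 to 13 higher. With the 4 h libraries as baseline, chosen after seeing the data, 11 members had a higher interaction. The cause of these differences was not tested. Of the other counts 356 stayed within 1.5 times, and leaving out a library gave 57 to 62 lower members between genotypes at 24 h. With a replicate block the counts there were 62 lower and 11 higher and no count was moved by over 1.5 times. Deviations of well-expressed genes from their group mean were compared between same-numbered libraries of different groups. Their correlations ran from -0.236 to 0.282 (median 0.012), so the numbers were not taken to pair the libraries. Depth limits the precision of members of a few CPM, such as Rpl13a and Rpl22l1.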
